A study of Mus musculus with 7 samples.

Results

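Acinar cells of the pancreas pack their products into zymogen granules, and this account follows 8 genes for granule proteins and other acinar secretory products that are not the main digestive enzymes: Gp2, Cuzd1, Zg16, Sycn, Klk1, Serpini2, Reg1 and Rnase1. They were taken by gene symbol from the 27138 features of a table of read counts, and all 8 were among the 16910 features with enough counts to be tested. The counts came from polyadenylated RNA of the pancreas of E15.5 mouse embryos, in 7 libraries that each came from a separate animal. The 4 WT embryos carried floxed alleles (fl/fl) of 2610035D17Rik, the gene that corresponds in mice to human LINC00673, a long non-coding RNA, and no Cre. The 3 cKO embryos carried the same floxed alleles together with Pdx1Cre, which is active in the pancreatic epithelium, whereas the whole dissected organ, with its other cell types, was sequenced. Any effect of Cre itself cannot be told apart from that of the deletion, because no group carried Cre alone. The series addresses how loss of this RNA alters the developing pancreas.

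In the embryo, acinar cells differentiate from the tips of the branching epithelium, and around this age they begin to make secretory proteins in bulk. Newly made proteins pass through the endoplasmic reticulum and Golgi, condense in granules, and are released at the apical membrane when a secretagogue raises calcium. Gp2 and Cuzd1 belong to the granule membrane, Zg16 and Sycn to the granule content that lies against that membrane, and Klk1, Serpini2, Reg1 and Rnase1 are secreted products.

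Totals per library were 14883918 to 17767373 counts. The targeted gene 2610035D17Rik had 125 to 168 counts in the WT libraries and 34 to 57 in the cKO libraries, so it was lower in every cKO library (log2 fold change −1.76, edgeR adjusted p = 0.0902). All 12 acinar markers were detected, with summed levels of 27119 to 55840 CPM (counts scaled to library size) in WT and 27220.4 to 46811 CPM in cKO embryos. WT replicate 4 stood apart in these acinar markers (55840 CPM against 27119 to 28987 CPM in the other WT libraries), and it is also the only library whose column name carries the number 7, where the other 6 carry 6. No source used here says what that number stands for. The 13 liver markers, all higher in the cKO fit, summed to 1672 CPM in WT replicate 4, 2333 CPM for cKO replicate 1, and 594.9 to 839.8 CPM in the other 5 libraries. Their sum was thus high in the same 2 libraries as most of the genes described here. Ambp was highest in cKO replicate 2 (424 CPM) and WT replicate 2 (417.5 CPM). All others were highest in WT replicate 4 and cKO replicate 1, to unlike extents. Alb had 354 and 689 CPM there against 8.59 to 31.0 CPM elsewhere, and Ttr 325 and 358 CPM there against 238 to 300 CPM. Erythroid markers, with 7 of 7 tested higher in the cKO fit, were highest there too, at 2313 and 2815 CPM against 962.6 to 1841 CPM elsewhere. The leukocyte markers, 9 of 10 higher in the fit, also had their highest sums there, at 404 and 366 CPM against 257 to 313.5 CPM. Lyz2, C1qa, C1qb and Tyrobp had their highest values in these libraries, whereas Ptprc, Adgre1, Csf1r, Cd68, Fcer1g and Mrc1 did not follow in both. Ptprc was highest in cKO replicate 2 (10.8 CPM) and Mrc1 in WT replicate 2 (61.6 CPM). The part of these cell types in the results below was not tested. In a bulk sample, fewer acinar cells and less RNA per acinar cell cannot be told apart.

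The 8 genes differed widely in level per length. Levels are given here as CPM per kilobase of annotated exon, with exon lengths from GENCODE M21 on GRCm38. Rnase1, a pancreatic ribonuclease that digests dietary RNA, had 198 ± 171 CPM per kilobase in WT (SD, n = 4). Serpini2, a serine protease inhibitor of the serpin family, had 164 ± 79.2, and Sycn, the granule protein syncollin, had 112 ± 94.2. Rnase1 lay above Sycn in 7 of 7 libraries. Serpini2 could not be ordered against either, since Rnase1 exceeded it in 3 of 7 libraries and it exceeded Sycn in 4 of 7. Below these genes in mean level, Reg1, a secreted C-type lectin-like protein also known as lithostathine, had 58.2 ± 22.6. In WT replicate 3 Reg1 had 50.9, where Serpini2 had 49.9. Klk1, the tissue kallikrein that releases kinins from kininogen, had 23.0 ± 19.2. Zg16, a lectin-like protein of the granule matrix, had 8.85 ± 11.4. Gp2, the glycolipid-anchored major glycoprotein of the granule membrane, had 1.97 ± 1.53, and Cuzd1, a granule protein with CUB and zona pellucida-like domains, had 0.882 ± 0.686. From Sycn down to Cuzd1 each gene exceeded the next in 7 of 7 libraries, so the granule membrane proteins were the least abundant transcripts of the set in every library. Summed over the 8 genes, CPM came to 0.625% to 1.36% of the summed CPM of 27 digestive enzyme genes.

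None of the 8 genes separated cKO from WT. All 8 had a higher estimate in cKO, where 46.0% of all tested features did, and their median log2 fold change was 0.32 against −0.01 over all features, but 0 of 8 passed an adjusted p of 0.05 in edgeR's quasi-likelihood test, where 0.00591% of all features passed. At an unadjusted p under 0.05 there were also 0 of 8, where 1.38% of features passed, and DESeq2 and limma-voom each called 0 of 8 at an adjusted p under 0.05, where 0.0738% and 0.00591% passed. The 2 groups overlapped for each of the 8 genes. Over all features, every cKO library lay above every WT library in 1.30% and below in 1.43%.

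**Figure D1:**
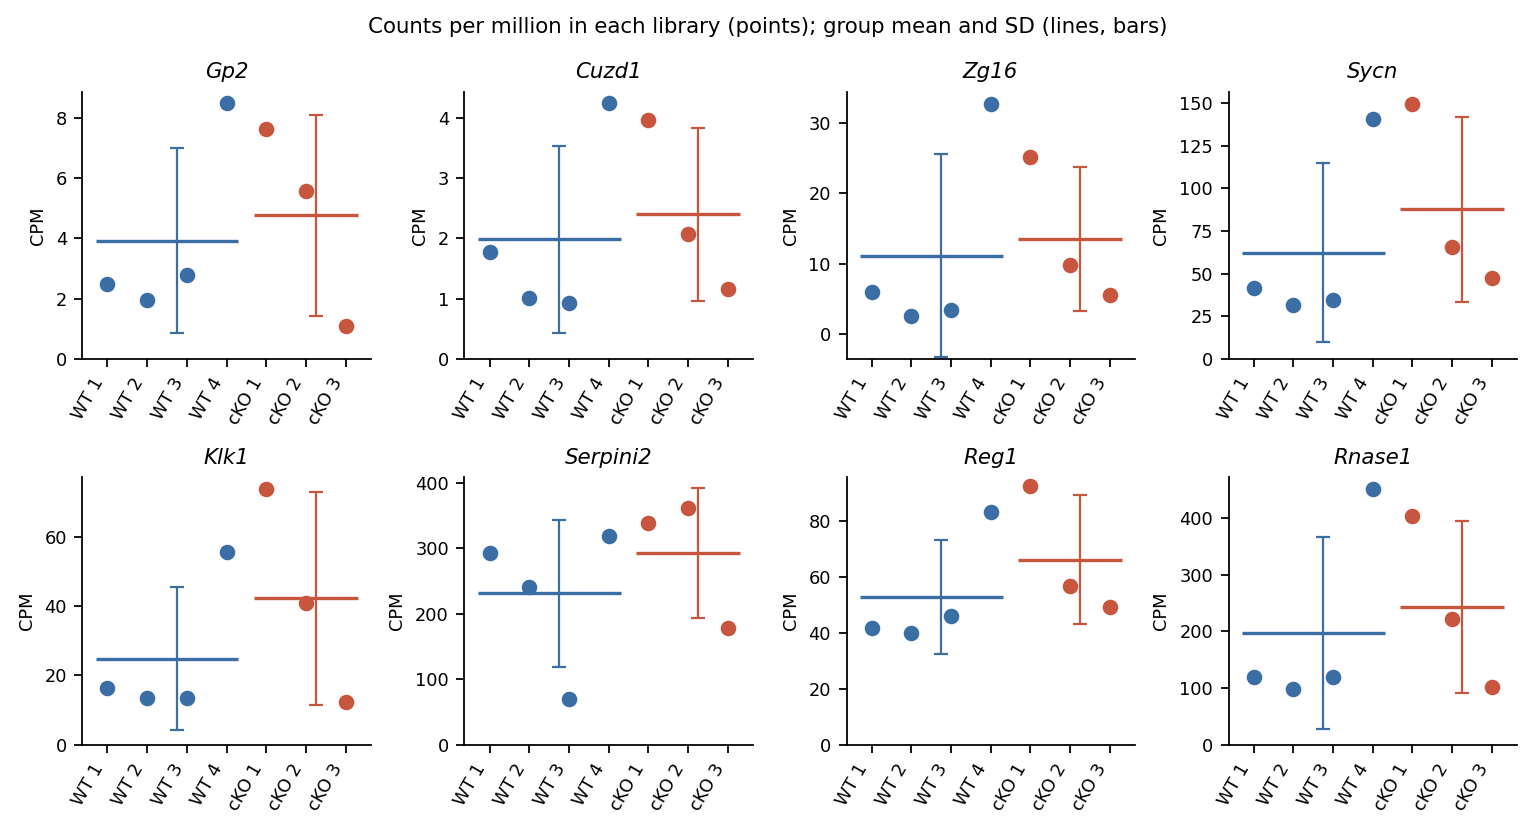
CPM (y axis) of the 8 genes in each library (x axis), with WT in blue and cKO in red. Points are single libraries, horizontal lines group means and bars SDs. WT replicate 4 and cKO replicate 1 were the highest pair for every gene but Serpini2, which was lowest in WT replicate 3.

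Among the granule membrane and matrix proteins, Zg16 varied most. Its level was 5.89, 2.56, 3.47 and 32.6 CPM in WT replicates 1 to 4 and 25.1, 9.83 and 5.58 CPM in cKO replicates 1 to 3. WT replicate 4 exceeded every cKO library, while 2 of the 3 cKO libraries exceeded the other WT libraries. The estimated log2 fold change, 0.29, had an SE of 1.06 and a 95% interval of −2.32 to 2.91 (exact 2-sided permutation p = 0.514). With its 95% interval, this allows anything from 0.200 to 7.50 times the WT level. Sycn had 41.8, 31.9, 34.7 and 141 CPM in WT embryos and 149.5, 65.6 and 47.7 CPM in cKO embryos. Again WT replicate 4 and cKO replicate 1 were far above the others, and all 3 cKO libraries were above WT replicates 1 to 3. Its estimate of 0.50 had an SE of 0.705 and a 95% interval of −1.24 to 2.24 (exact permutation p = 0.4).

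Gp2 and Cuzd1 had the fewest counts of the 8 genes. Gp2 had 46, 33, 48 and 120 counts in WT (2.49, 1.97, 2.78 and 8.48 CPM) and 129, 94 and 20 counts in cKO (7.63, 5.57 and 1.11 CPM). Its lowest value was that of cKO replicate 3, at 0.445 of the median of WT replicates 1 to 3, where the other 7 genes had 0.739 to 1.61 of theirs. Cuzd1 had 33, 17, 16 and 60 counts in WT (1.78, 1.01, 0.926 and 4.24 CPM) and 67, 35 and 21 counts in cKO (3.96, 2.07 and 1.16 CPM). The groups overlapped in both genes, and the log2 fold changes were 0.29 (SE 0.731) for Gp2 and 0.28 (SE 0.610) for Cuzd1, with exact permutation p of 0.857 and 0.543.

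Of the secreted products, Rnase1 and Klk1 followed the same libraries. Rnase1 had 119, 98.9, 119 and 451 CPM in WT embryos and 403, 223 and 103 CPM in cKO embryos. Klk1 had 16.3, 13.5, 13.6 and 55.7 CPM in WT embryos and 73.7, 41.0 and 12.2 CPM in cKO embryos. In both genes cKO replicate 3 lay at the level of WT replicates 1 to 3, while cKO replicates 1 and 2 lay above them. The log2 fold change was 0.30 (SE 0.740, 95% interval −1.52 to 2.13, exact permutation p = 0.629) for Rnase1. For Klk1 it was 0.78 (SE 0.793, 95% interval −1.18 to 2.74, exact permutation p = 0.4), the largest estimate among the 8 genes. Reads of Klk1 could be shared with its close copies in the kallikrein gene family, so its level is uncertain to that extent.

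Reg1 was the steadiest of the 8. It had 41.6, 39.9, 46.0 and 83.0 CPM in WT embryos and 92.4, 56.5 and 49.3 CPM in cKO embryos, and the estimated difference on the log2 scale was 0.33, with an SE of 0.331 and a 95% interval of −0.46 to 1.12 (exact permutation p = 0.4). Every cKO library lay above WT replicates 1 to 3, as for Sycn, but not above WT replicate 4. The ratio of the highest to the lowest library was 2.31 for Reg1, against 4.56 to 12.7 for the other 7 genes.

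Serpini2, whose loss in mice is known to cause acinar cell death and pancreatic insufficiency, departed from the rest. It had 293, 242, 70.5 and 319 CPM in WT embryos and 338, 361 and 179 CPM in cKO embryos. WT replicate 4 and cKO replicate 1 did not stand out here, and WT replicate 3 was far below all others, with 1217 counts where the others had 3232 to 6103. The log2 fold change was 0.34 (SE 0.536, 95% interval −0.97 to 1.65, exact permutation p = 0.6), and it was 0.04 without WT replicate 3. The edgeR adjusted p (Benjamini-Hochberg) of each of the 8 genes was 0.9999, and the smallest exact permutation p was 0.4, where the 35 divisions of the libraries allow 0.0286.

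A large part of the spread lay within the WT group. Set against WT replicates 1 to 3, WT replicate 4 had 9.38 times their median for Zg16, 4.18 times for Cuzd1, 4.09 times for Klk1, 4.05 times for Sycn, 3.80 times for Rnase1 and 3.41 times for Gp2. The corresponding values were 2.00 for Reg1 and 1.32 for Serpini2, and the summed digestive enzymes were at 2.00. The same ratios in cKO replicate 1 were 7.23 for Zg16, 5.42 for Klk1, 4.31 for Sycn, 3.91 for Cuzd1, 3.40 for Rnase1, 3.07 for Gp2, 2.22 for Reg1 and 1.40 for Serpini2, and 1.72 for the digestive enzymes. Gp2, Cuzd1, Zg16, Sycn, Klk1 and Rnase1 thus stood further above WT replicates 1 to 3 than the digestive enzyme sum did in both libraries. This does not set them apart from each digestive enzyme. Cela3b had 1873 and 1712 CPM in these libraries against 389 to 500.1 CPM in WT replicates 1 to 3. Cpb1 had 1675 and 1444 CPM against 294 to 535 CPM. The carboxypeptidase Cpa1 rose less, with 8831 and 5670 CPM against 4576 to 4972 CPM. The SD of log2 CPM within WT was 0.49 for Reg1 and 0.91 to 1.61 for the other 7, which placed each gene above 93.3% or more of the tested features of similar mean level. Within cKO the SDs were 0.48 for Reg1 and 0.56 to 1.43 for the others, above 88.9% or more of such features.

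**Figure D2:**
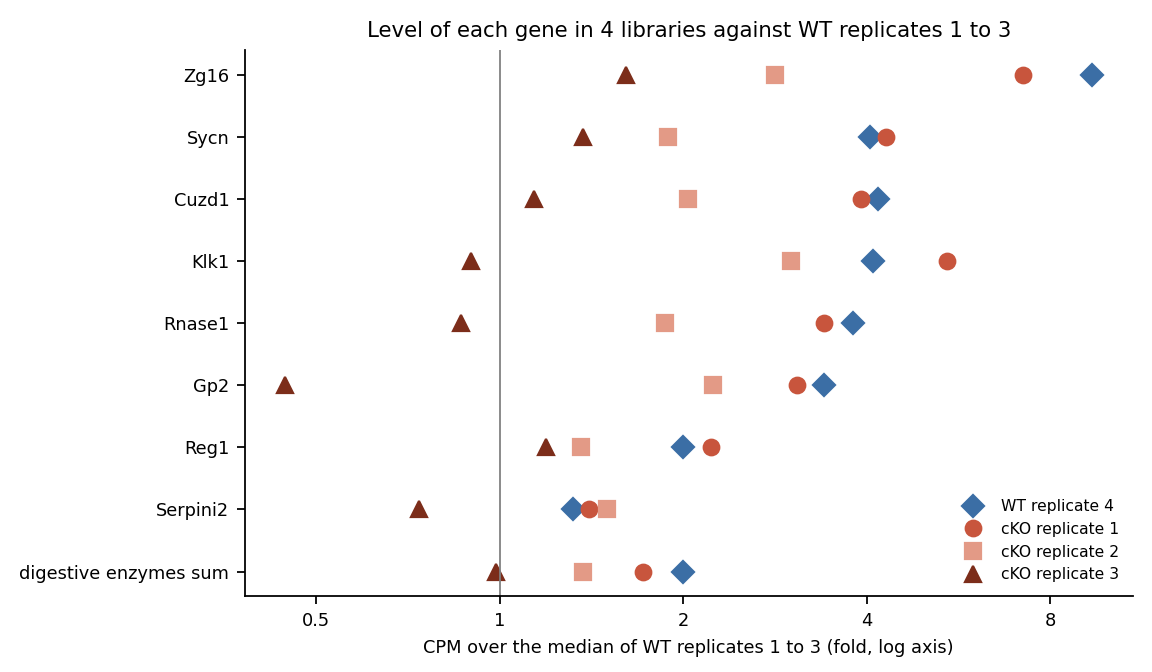
Level of each gene and of the summed digestive enzymes in WT replicate 4 and the 3 cKO libraries, as a multiple of the median of WT replicates 1 to 3 (x axis, log scale). The vertical line marks that median. WT replicate 4 and cKO replicate 1 lie between 3.07 and 9.38 for 6 genes, near 2 for Reg1 and below 1.5 for Serpini2.

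The size of the group difference depended on which libraries were compared. Without WT replicate 4, the library whose column name differs, the median log2 fold change of the 8 genes was 1.03, with 1.75 (95% interval 0.25 to 3.24) for Zg16, 1.27 (0.16 to 2.37) for Sycn and 0.63 (0.09 to 1.16) for Reg1. These 3 had an unadjusted p under 0.05 in that fit, where 1.55% of features had one and were higher in cKO, and 0 of 8 passed after adjustment (edgeR adjusted p = 0.999). Against WT replicates 1 to 3, all cKO libraries were higher for 2 of the 8 genes, Sycn and Reg1, where 3.84% of features showed this. Without cKO replicate 1 the median was −0.17 and 3 of 8 genes had a higher estimate, Klk1 (0.12), Reg1 (0.02) and Serpini2 (0.23). With both of these libraries left out the median was 0.50 and 8 of 8 were higher.

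Over genes of at least 10 CPM, libraries of the 2 groups that share a replicate number deviated from their group means together (r of 0.397, 0.531 and 0.178 for numbers 1, 2 and 3), so each cKO library was set beside the WT library of its number. The labels state no pairs, so the differences within pairs and the blocked fit below rest on pairs inferred from these same libraries. The third pairing is the weakest, since cKO replicate 3 correlated more with WT replicate 2 (0.376). By chi-square over its degrees of freedom, cKO replicate 1 was nearer WT replicate 4 (16.4) than WT replicate 1 (33.7). On that measure cKO replicate 3 was nearer WT replicate 2 (11.1) than WT replicate 3 (13.1). For cKO replicate 2, WT replicate 2 (14.4) and WT replicate 4 (14.6) were about equally near. On log2 CPM, Zg16 was higher in cKO by 2.07, 1.89 and 0.67 in pairs 1, 2 and 3, and Sycn by 1.84, 1.04 and 0.46. Reg1 was higher by 1.15, 0.50 and 0.10, Cuzd1 by 1.1, 0.95 and 0.29, and Serpini2 by 0.21, 0.58 and 1.34. These 5 of 8 genes were higher in all 3 pairs, where 11.7% of features were. Gp2, Klk1 and Rnase1 were higher in pairs 1 and 2 and lower in pair 3, by −1.24, −0.15 and −0.21. With the replicate number as a block, which leaves WT replicate 4 without a partner and so without weight, the median log2 fold change was 0.89 and Zg16 had 1.60 (SE 0.284, 95% interval 0.93 to 2.27). In the blocked fit 5 of 8 genes had an unadjusted p under 0.05, all higher in cKO, where 2.16% of features did, and 0 of 8 passed after adjustment, where 0.0769% did. Most of the 8 genes varied together across the libraries. These counts, like the others given for the 8 genes, are therefore not counts of independent results. The smallest adjusted p was 0.328, for Zg16, in edgeR's blocked fit.

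**Figure D3:**
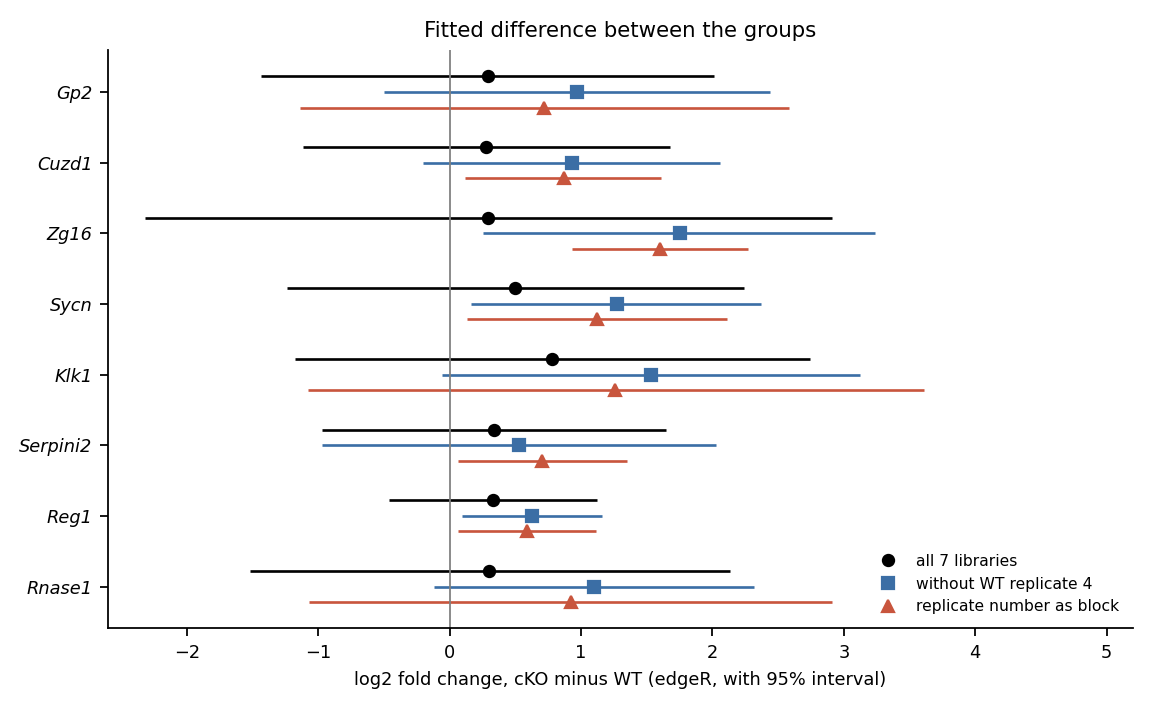
Fitted log2 fold change of cKO minus WT (x axis) with its 95% interval for each gene, with all 7 libraries (black), without WT replicate 4 (blue) and with the replicate number as a block (red). Every interval with all 7 libraries includes 0. For Zg16 the interval runs from −2.32 to 2.91 with all 7 libraries and from 0.93 to 2.27 with the block.

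The members were then expressed as a percentage of the summed digestive enzymes of the same library. Reg1 stayed between 0.0853% and 0.115% in all 7 libraries, a range of 1.35 times. Rnase1 ranged from 0.211% to 0.503%, Sycn from 0.0681% to 0.187%, Klk1 from 0.0265% to 0.0920% and Cuzd1 from 0.00199% to 0.00494%, ranges of 2.38 to 3.47 times. Gp2 ranged over 3.96 times, Serpini2 over 4.15 times and Zg16 over 6.37 times. On this scale too the groups overlapped for all 8 genes. With the log2 digestive enzyme sum as a covariate the SE of Rnase1 fell from 0.740 to 0.105 and that of Reg1 from 0.331 to 0.107, while that of Serpini2 was 0.553. The log2 fold changes in that fit were 0.07 for Rnase1, 0.19 for Reg1, 0.33 for Sycn, 0.40 for Klk1 and −0.10 for Gp2, and 0 of 8 passed.

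The genes most like each member were sought among 10301 other named genes of at least 10 CPM, by the root mean square (RMS) difference of centred log2 CPM over the 7 libraries. Rnase1 was matched most closely, by the elastase Cela3b, with an RMS difference of 0.0446 where Rnase1 itself departed from its own mean by 0.871. Cela3b had 500.1, 389, 496 and 1873 CPM in WT embryos and 1712, 923 and 451 CPM in cKO embryos. Rnase1 was thus 22.8% to 25.4% of Cela3b in all 7 libraries, a range of 1.12 times, while Rnase1 itself ranged over 4.56 times. Cela3b was also the nearest gene to Klk1 (RMS difference 0.267) and Gp2 (0.366). Amylase genes and a pseudogene of the amylase cluster, whose reads can be shared between copies, were nearest to Sycn (Amy2-ps1, 0.134, and Amy2a3, 0.138) and came next for Klk1 (Amy2-ps1, 0.274), Rnase1 (Amy2-ps1, 0.179) and Gp2 (Amy2a5, 0.389). Cuzd1 was nearest to Amy2a3 (0.218) and the trypsinogen Prss3 (0.219), and Zg16 to the elastase Cela2a (0.433) and the carboxypeptidase Cpb1 (0.443).

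Reg1 and Serpini2 had other neighbours. Reg1 was nearest to Lyz2, a lysozyme of macrophages and other myeloid cells (RMS difference 0.126), which had 35.6, 34.7, 36.0 and 75.0 CPM in WT embryos and 65.4, 48.1 and 35.9 CPM in cKO embryos, and to Blvrb, a reductase of haem breakdown (0.132). The 10 leukocyte markers, Lyz2 among them, summed to 257 to 404 CPM in WT embryos and 289.5 to 366 CPM in cKO embryos, and their part in the level of Reg1 was not tested. Serpini2 was nearest to the ribosomal protein gene Rps3a1 (0.291) and the tropomyosin Tpm3 (0.325), which like it were lowest in WT replicate 3. Rps3a1 had 240.1 CPM there and 865 to 1862 CPM elsewhere, and Tpm3 had 104 CPM there and 228 to 364 CPM elsewhere.

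**Figure D4:**
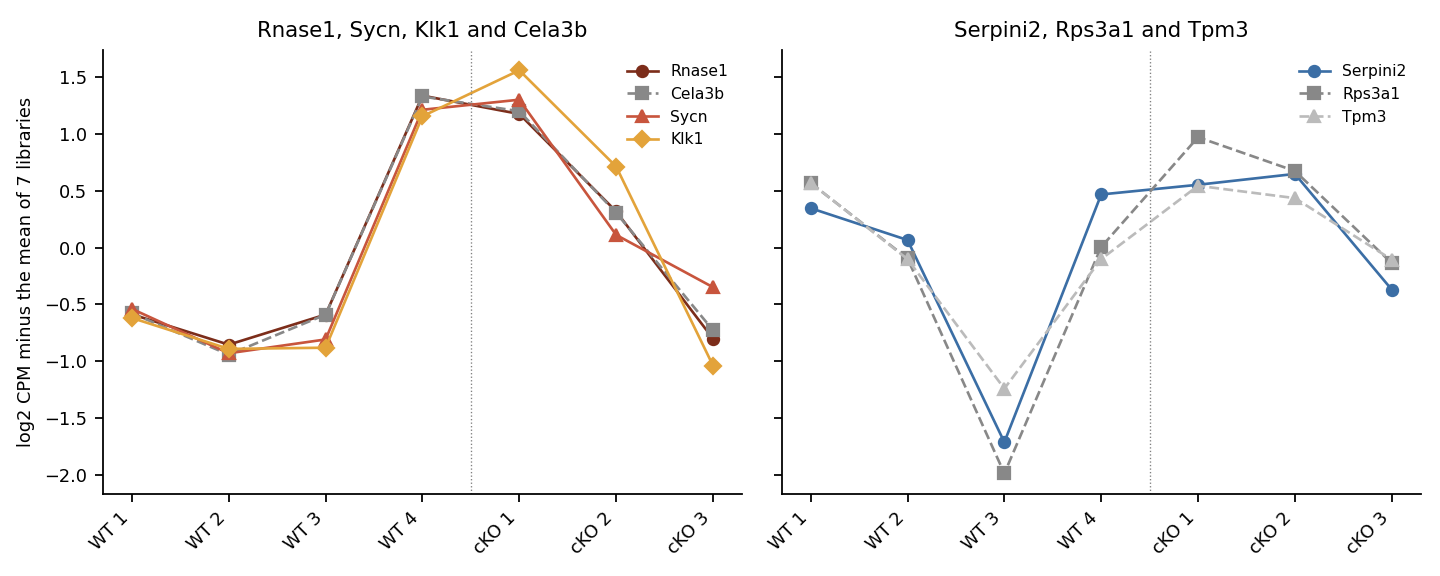
Log2 CPM minus the mean of the 7 libraries (y axis) in each library (x axis, WT left of the dotted line), where lines only join the points of a gene. Rnase1 and Cela3b lie on top of each other, with Sycn and Klk1 close by and high in WT replicate 4 and cKO replicate 1. Serpini2, Rps3a1 and Tpm3 share their lowest value in WT replicate 3.

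Upstream sequences are shown for 3 genes that moved together across the libraries (Klk1, Sycn and Rnase1) and for Serpini2, which did not move with them. They are the 250 bases before the RefSeq start, from the promoter table of build GRCm38.p6, which held 7 of the 8 genes, and Zg16 was not among them. They are printed 5′ to 3′ on the strand of the gene, and capitals mark matches on either strand to CANNTG (the E-box bound by basic helix-loop-helix factors such as PTF1A), TTTCCC (within the TC-box that PTF1 binds beside an E-box), AAGGTCA (an NR5A2 motif) and CATATG (an E-box form bound by BHLHA15, which also matches CANNTG).
Klk1, chr7:44225110-44225359, plus strand: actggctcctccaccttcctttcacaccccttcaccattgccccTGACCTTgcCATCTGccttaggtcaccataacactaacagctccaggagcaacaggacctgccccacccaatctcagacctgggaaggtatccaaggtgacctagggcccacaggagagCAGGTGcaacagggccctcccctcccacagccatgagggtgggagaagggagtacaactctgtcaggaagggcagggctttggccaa
Sycn, chr7:28540635-28540884, plus strand: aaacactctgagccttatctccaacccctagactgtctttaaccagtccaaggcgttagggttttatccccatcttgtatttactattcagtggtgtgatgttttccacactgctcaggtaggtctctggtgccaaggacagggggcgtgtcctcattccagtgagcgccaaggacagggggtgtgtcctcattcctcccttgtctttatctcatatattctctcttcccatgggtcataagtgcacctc
Rnase1, chr14:51146768-51147017, minus strand: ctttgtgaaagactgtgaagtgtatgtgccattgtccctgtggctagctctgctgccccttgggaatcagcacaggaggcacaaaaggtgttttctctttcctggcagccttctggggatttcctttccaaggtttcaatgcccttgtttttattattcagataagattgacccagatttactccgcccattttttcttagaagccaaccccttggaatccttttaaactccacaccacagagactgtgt
Serpini2, chr3:75270079-75270328, minus strand: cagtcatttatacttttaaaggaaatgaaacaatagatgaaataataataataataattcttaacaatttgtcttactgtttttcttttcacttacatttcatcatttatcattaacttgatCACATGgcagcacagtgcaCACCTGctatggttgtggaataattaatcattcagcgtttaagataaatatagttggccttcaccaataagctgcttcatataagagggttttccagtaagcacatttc
CANNTG occurred in 5 of the 7 upstream sequences, where 66.2% of 32851 promoters of the same length held it. Klk1 held it as CATCTG and CAGGTG, 192 to 197 and 82 to 87 bases before the start, and AAGGTCA on the opposite strand at 200 to 206, a motif present in 4.08% of promoters. Serpini2 held CACATG at 123 to 128 and CACCTG at 104 to 109. Reg1 alone held TTTCCC (21.9% of promoters), 0 of 7 held CATATG (3.46%), and Sycn and Rnase1 held no match to any of the 4 motifs in this window.

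Genes of the same families were mostly far less abundant. In the Reg family, 5 of 6 listed genes were in the table and 2 had enough counts, Reg3d with 3.49 ± 1.37 CPM in WT embryos and 3.41 ± 1.61 CPM in cKO embryos (log2 fold change −0.03, SE 0.403) and Reg3g with 0.512 ± 0.257 and 0.658 ± 0.109 CPM (0.38, SE 0.454). Of 26 other tissue kallikreins 7 were tested and 6 had a higher estimate, where 46.0% of all tested features did. Klk1b3 had 2.34 ± 0.832 CPM in WT embryos and 3.48 ± 0.636 CPM in cKO embryos (log2 fold change 0.57, SE 0.309), and Klk1b4 had 0.382 ± 0.183 and 0.544 ± 0.193 CPM (0.48, SE 0.487). Klk1b22, named after its values were seen, had 39 and 9 counts in cKO replicates 1 and 2, the cKO libraries in which Klk1 was high, 6 in WT replicate 1 and 0 in the other 4, WT replicate 4 among them, where Klk1 was also high. Klk1b5, a tested relative also named after its values were seen, was high in WT replicate 4 too. It had 5, 4, 11 and 21 counts in WT replicates 1 to 4 and 31, 22 and 2 in cKO replicates 1 to 3. Of 18 ribonuclease A relatives 3 were tested, and Rnase4 (352 ± 79.4 and 373 ± 36.1 CPM, log2 fold change 0.08) and Ang, the RNase angiogenin (47.2 ± 11.3 and 54.0 ± 12.3 CPM, 0.20), varied less between libraries than Rnase1. Serpini1, the neuronal serpin related to Serpini2, had 61.5 ± 12.3 and 56.8 ± 4.62 CPM (−0.11, SE 0.156) and was highest, not lowest, in WT replicate 3 at 74.9 CPM. Dmbt1, a secreted protein with CUB and zona pellucida domains, had 4.22 ± 3.18 and 4.26 ± 2.94 CPM (0.02, SE 0.637), with its highest values in WT replicate 4 (8.97 CPM) and cKO replicate 1 (7.45 CPM).

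None of the genes for moving and fusing granules passed the test. Of 32 genes for granule trafficking and exocytosis (Rab proteins, SNAREs and their partners), all tested, 17 had higher and 15 lower estimates in cKO. Over all tested features 46.0% had a higher estimate. The list had a median log2 fold change of 0.01 in a range of −0.40 to 0.38, and 0 passed. Snap29, a SNARE protein, had 33.2 ± 0.691 CPM in WT embryos and 35.9 ± 2.43 CPM in cKO embryos (log2 fold change 0.11, SE 0.082). Every cKO library lay just above every WT library (34.0 against 33.9 CPM at the nearest). It was the 1 gene of this list for which that held, where 1.30% of all tested features showed it. The Rab27 effector Exph5 had 8.46 ± 2.03 and 6.72 ± 2.88 CPM (−0.33, SE 0.319). Of 20 genes for secretagogue receptors and calcium release, 6 were higher and 14 lower (median −0.07) and 0 passed, with Plcb3, a phospholipase C, at 76.6 ± 4.79 and 69.3 ± 10.5 CPM (−0.14, SE 0.108) and Orai1, a store-operated calcium channel, at 12.1 ± 1.27 and 13.8 ± 2.32 CPM (0.19, SE 0.151). Of 8 acinar transcription factors 4 were higher (median 0.00) and 0 passed. Ptf1a, which drives acinar differentiation, had 55.8 ± 9.52 and 64.3 ± 12.4 CPM (0.20, SE 0.161), and Xbp1, a regulator of secretory capacity, had 581 ± 71.2 and 612 ± 62.6 CPM (0.08, SE 0.115). Of 27 digestive enzyme genes 22 were higher (median 0.13), where 46.0% of all tested features were, and 0 passed. Amy2b, an amylase, had 878 ± 266 and 489 ± 238 CPM (−0.84, SE 0.359), and Ctrc, a chymotrypsin, had 30.0 ± 30.9 and 99.2 ± 30.4 CPM (1.72, SE 1.11). Ctrc was the 1 gene of this list whose groups did not overlap, with 2.65, 53.1, 60.1 and 3.96 CPM among the WT libraries and 118, 116 and 64.1 among the cKO libraries. Over all tested features, every cKO library lay above every WT library in 1.30% and below in 1.43%. In these 8 lists of further genes edgeR called 0 members, where 0.00591% of all tested features were called. In the same lists 0 had an unadjusted p under 0.05, where 1.38% of all tested features did.

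Klk1 is also made in salivary gland and kidney, and Zg16 in intestinal goblet cells. Of 11 salivary and kidney tubule markers 3 were in the table, the kidney genes Slc12a1, Pax2 and Pax8, and 0 were tested. These summed to 0.212 to 0.537 CPM per library, below the 12.2 to 73.7 CPM of Klk1. No salivary gland marker was in the table, so no salivary level can be given. The part of either tissue in the level of Klk1 was not tested. Of 16 stomach and intestine markers 6 were tested, with summed levels of 28.0 to 52.5 CPM in WT embryos and 28.2 to 46.0 CPM in cKO embryos. Cdx1, Cdx2, Fabp2, Gkn1, Muc5ac, Muc6 and Pgc were each under 1 CPM in every library, and the goblet cell mucin Muc2 was listed but was not in the table. The members of this list did not share a pattern. Tff3, a goblet cell peptide, was highest in WT replicate 4 (1.34 CPM) and cKO replicate 1 (2.19 CPM), as Zg16 was. So were Tff2 (11.7 and 8.1 CPM, elsewhere 4.2 to 6.28) and Agr2 (5.58 and 8.39 CPM, elsewhere 1.85 to 5.45). Vil1 was highest in WT replicate 4 (31.1 CPM) and cKO replicate 2 (29.3 CPM). Gkn3 and Sox2 were not highest in WT replicate 4 (0.919 and 0.636 CPM). Cdx1, an intestinal factor under 1 CPM throughout, was lowest in WT replicate 4 and cKO replicate 1 (0.0707 and 0.0591 CPM). Cdx2, equally sparse, had 0.424 and 0 CPM there. The part of such cells in the level of Zg16 was not tested.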

How the data were processed

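Polyadenylated RNA of 4 WT and 3 cKO pancreases was sequenced. The values are whole-number read counts, deposited by the authors without normalization. Per the submitters' processing notes the tools were HISAT2, StringTie and featureCounts and the build mm39, with no roles stated. How multi-mapping reads were treated is not stated there, which bears on Klk1, the Reg genes and the amylases. Per the labels' protocols the kit had no step that keeps the strand. In the GENCODE M21 annotation (GRCm38, used for names, chromosomes and exon lengths, not coordinates) the exons of the 8 genes shared 0 bases with those of other genes. Symbols were found for 26764 of 27138 features.

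The groups were compared with edgeR 4.0.16 under R 4.3.3 (filterByExpr, TMM factors of 0.952 to 1.04, robust quasi-likelihood fit on the group), with Benjamini-Hochberg adjustment over 16910 features and a threshold of 0.05. CPM were scaled by the TMM factors. A prior count of 2 was added before taking log2. SEs came from the log2 fold change and its F statistic. DESeq2 1.42.0, limma-voom (limma 3.58.1), other scalings and filters, and fits without each library were alternatives. Single genes also had an exact 2-sided permutation test of log2 CPM, 8 in all. Tested on simulated counts for cKO against WT over 16910 genes, the fit recovered 23.3% of genes set to a 1.5-fold change, 62.7% at 2-fold and 86.7% at 4-fold, and 7.35% of its calls were false, above the threshold. These shares are over all genes, and the 8 genes described here vary more between libraries than most.

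Replicate numbers 1 to 3 come from the labels. Deviations from group means over genes of at least 10 CPM correlated at 0.397, 0.531 and 0.178 for the same-numbered libraries, so the numbers were taken to pair the samples, from the data and not from a stated litter or batch. Every library pair differed beyond sampling noise (chi-square over its degrees of freedom, 11.1 to 50.8). The genes, the other lists and the rule for named genes (the 8 genes, the 2 genes most like each, and the 2 with the smallest p of each list) were chosen with earlier results of these data known.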

Additional observations from a re-analysis of the deposited data

Results flagged for a closer look

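In WT, a single library lay far from the other 3 for 6 of the 8 genes, and it was WT replicate 4 each time. Its levels were 8.48 CPM for Gp2, 32.6 CPM for Zg16, 141 CPM for Sycn, 55.7 CPM for Klk1, 83.0 CPM for Reg1 and 451 CPM for Rnase1. The gap to the next library took up 0.859 to 0.943 of the whole WT range in these genes, above Dixon's 95% critical value for 4 samples. This check used CPM and not log2 CPM, on which a gap at the top of the range takes up a smaller share. The count of 6 therefore holds for the CPM scale only. The summed digestive enzymes showed the same, with 93414 CPM in WT replicate 4 and 46527 to 46854 CPM in the other WT libraries. For normally distributed values chance marks about 1 in 20 groups in this way, which was not checked for these CPM. In all 9 were examined, but these genes share the same 4 libraries and are not independent. Cuzd1 (0.741) and Serpini2, by its lowest library (0.689), stayed under the critical value. The cKO group, with 3 libraries, was too small for this check.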

How the results depend on the processing

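The count of 0 genes past the threshold held under every alternative run, for the 8 genes and for the 8 further lists: other scalings and filters, DESeq2, limma-voom, estimation that is not robust, the replicate block, the digestive enzyme covariate and each library left out. The count with a higher estimate in cKO was 3 to 8 when 1 library was left out (3 without cKO replicate 1), and the median log2 fold change −0.17 to 1.03. Leaving out 1 library moved the log2 fold change between −0.51 and 1.75 for Zg16, −0.22 and 0.97 for Gp2, −0.28 and 0.93 for Cuzd1, −0.12 and 1.27 for Sycn and −0.26 and 1.1 for Rnase1, with a negative sign without cKO replicate 1 in all 5 and for Zg16 also without WT replicate 2 (−0.04) or WT replicate 3 (−0.01). It stayed positive for Klk1 (0.12 to 1.53), Reg1 (0.02 to 0.63) and Serpini2 (0.04 to 0.60). With the digestive enzyme covariate Gp2 was at −0.10. The cause was not tested. With the replicate block the median was 0.89, and it changed no call. WT replicates 1 to 3 each correlated best with the cKO library of its number, but cKO replicate 3 correlated best with WT replicate 2 (0.376). WT replicate 4, which has no partner, correlated best with cKO replicate 1 (0.358). The median WT SD of log2 CPM was 0.99 with a prior count of 2. Gp2 and Cuzd1 had only 16 to 129 counts per library, but their SEs (0.731 and 0.610) were no larger than that of Rnase1 (0.740), which had 1659 to 6821.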

Other observations

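Serpini2 was low in WT replicate 3 together with other genes of its chromosome. Among 10703 features of at least 10 CPM, 6 were below 0.6 times the lowest other library in WT replicate 3, and 4 of these lie on chromosome 3, which holds 5.05% of such features with a known chromosome. They were Serpini2, Rps3a1, Tpm3 and Rpl34, and the remaining ones were Rnf5 on chromosome 17 and an unannotated feature. Rpl34, a ribosomal protein gene, had 10.1 CPM in WT replicate 3 and 254 to 664 CPM in the other 6 libraries. The threshold of 0.6 and the grouping by chromosome were chosen after the values were seen, and no test was made. In the other 6 libraries the commonest chromosome held 4 of 14 such features (chromosome Y, WT replicate 2), 4 of 23 (chromosome 17, cKO replicate 1) or 1. Chromosome Y is carried by male embryos only, and the sex of the embryos was not examined. Rps3a1 and Rpl34 have near-identical copies elsewhere in the genome, so their counts are uncertain.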
